A study of Mus musculus with 15 samples.

Results

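Collagens, laminins and integrins were followed on mouse exon arrays, which carry several probesets along each gene, in 2 cell lines before and after dexamethasone, a synthetic glucocorticoid. The members were all genes whose platform symbol has the form of a collagen chain (Col), a laminin chain (Lam) or an integrin subunit (Itg), without the integrin-binding proteins of similar name, and with at least 3 probesets assigned to that gene alone. Of 67 matching symbols, 66 met this rule and Col10a1 did not, so the members were 66 of the 15041 genes with a value. They comprised 37 collagen, 6 laminin and 23 integrin or integrin-like genes, with a median of 35.5 probesets each. Lama3, Lama5, Lamb2, Itga1, Itga4 and Itga10 were among the family members that had no value under their names and were not analysed here.

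The 3134 line is a mouse mammary line made by transformation of C127 cells, which came from a mammary tumour of the RIII strain. AtT-20 is a mouse line of pituitary corticotrophs of the LAF1 strain, cells that make the hormone precursor Pomc. Both lines were kept in hormone-depleted serum before 100 nM dexamethasone was given for 2, 4 or 8 h, and the 0 h cells were the control of each line, labelled both untreated and vehicle treated. A single array was made of AtT-20 at 8 h and 2 of every other group, for 15 in all. The labels do not tell whether the arrays of a group came from separate cultures, and the p-values rest on the spread among them, which may be technical. No cells were kept for the same times without hormone, so an effect of dexamethasone and one of time in culture cannot be told apart. The lines differ in strain, tissue and transformation history, which cannot be told apart as sources of a difference between them.

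Markers of the labelled tissues were read first. All 6 corticotroph markers were above log2 6.59, the level a gene needed in at least 1 group to be tested, in AtT-20 at 0 h and none was in 3134. Of 7 epithelial markers 5 were below that level in each line, Cdh1 (5.73 in 3134 and 5.53 in AtT-20) and Epcam (4.32 and 3.64) among them. Krt8 (6.77 and 11.68) and Krt18 (4.95 and 9.97) were higher in AtT-20, and Krt14 stood at 7.03 in 3134 and 6.07 in AtT-20. In 3134, 6 of 8 mesenchymal markers were above the level and Vim stood at 13.2. The summed linear signal of the mesenchymal list ran from 12814 to 15067 over the 3134 arrays and from 836 to 1018 over the AtT-20 arrays, and that of the epithelial list from 344 to 526 and from 3799 to 5285. A linear sum is carried by its brightest genes, for the epithelial list in AtT-20 Krt8 and Krt18. Of 3 tested epithelial markers 1 was higher and 2 lower in 3134. The median difference over the 7 with a value, 3134 minus AtT-20, was log2 0.20. The marker sums differ between the lines along with the members, and the part of these cell types in the differences below was not tested. Bulk arrays cannot tell fewer cells of a type from less RNA per cell.

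As background, collagen chains wind in threes of one or more kinds into triple helices, which assemble into fibrils, into the sheet of basement membranes or into finer networks. Laminins are cross-shaped proteins of an alpha, a beta and a gamma chain that build basement membranes together with collagen IV. Integrins are receptors of an alpha and a beta subunit that bind these proteins outside the cell and couple them to the actin skeleton. Corticotrophs are epithelial endocrine cells, and collagen I and VI are typical products of mesenchymal cells.

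The first comparison asked how the basal levels of the members differed between the lines. Of the 66 members, 20 were above the level for testing only in 3134 at 0 h, 3 only in AtT-20, 11 in both and 32 in neither. This split was not counted over all genes, so it describes the members alone. The 36 members that reached it in any group were tested with limma, and 25 passed at an adjusted p under 0.05, 23 of them higher and 2 lower in 3134. Among all 9927 tested genes 54.5% passed, 24.3% higher and 30.2% lower in 3134, so the members' share of higher calls was 63.9% against 24.3% and their share of lower calls 5.56% against 30.2%. The median difference over all 66 members was log2 0.19, against -0.037 over all genes with a value. With no filter on dim genes, 30 of 66 members passed, 25 higher and 5 lower, where 36.8% of all genes did, 16.4% higher and 20.4% lower.

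**Figure D1:**
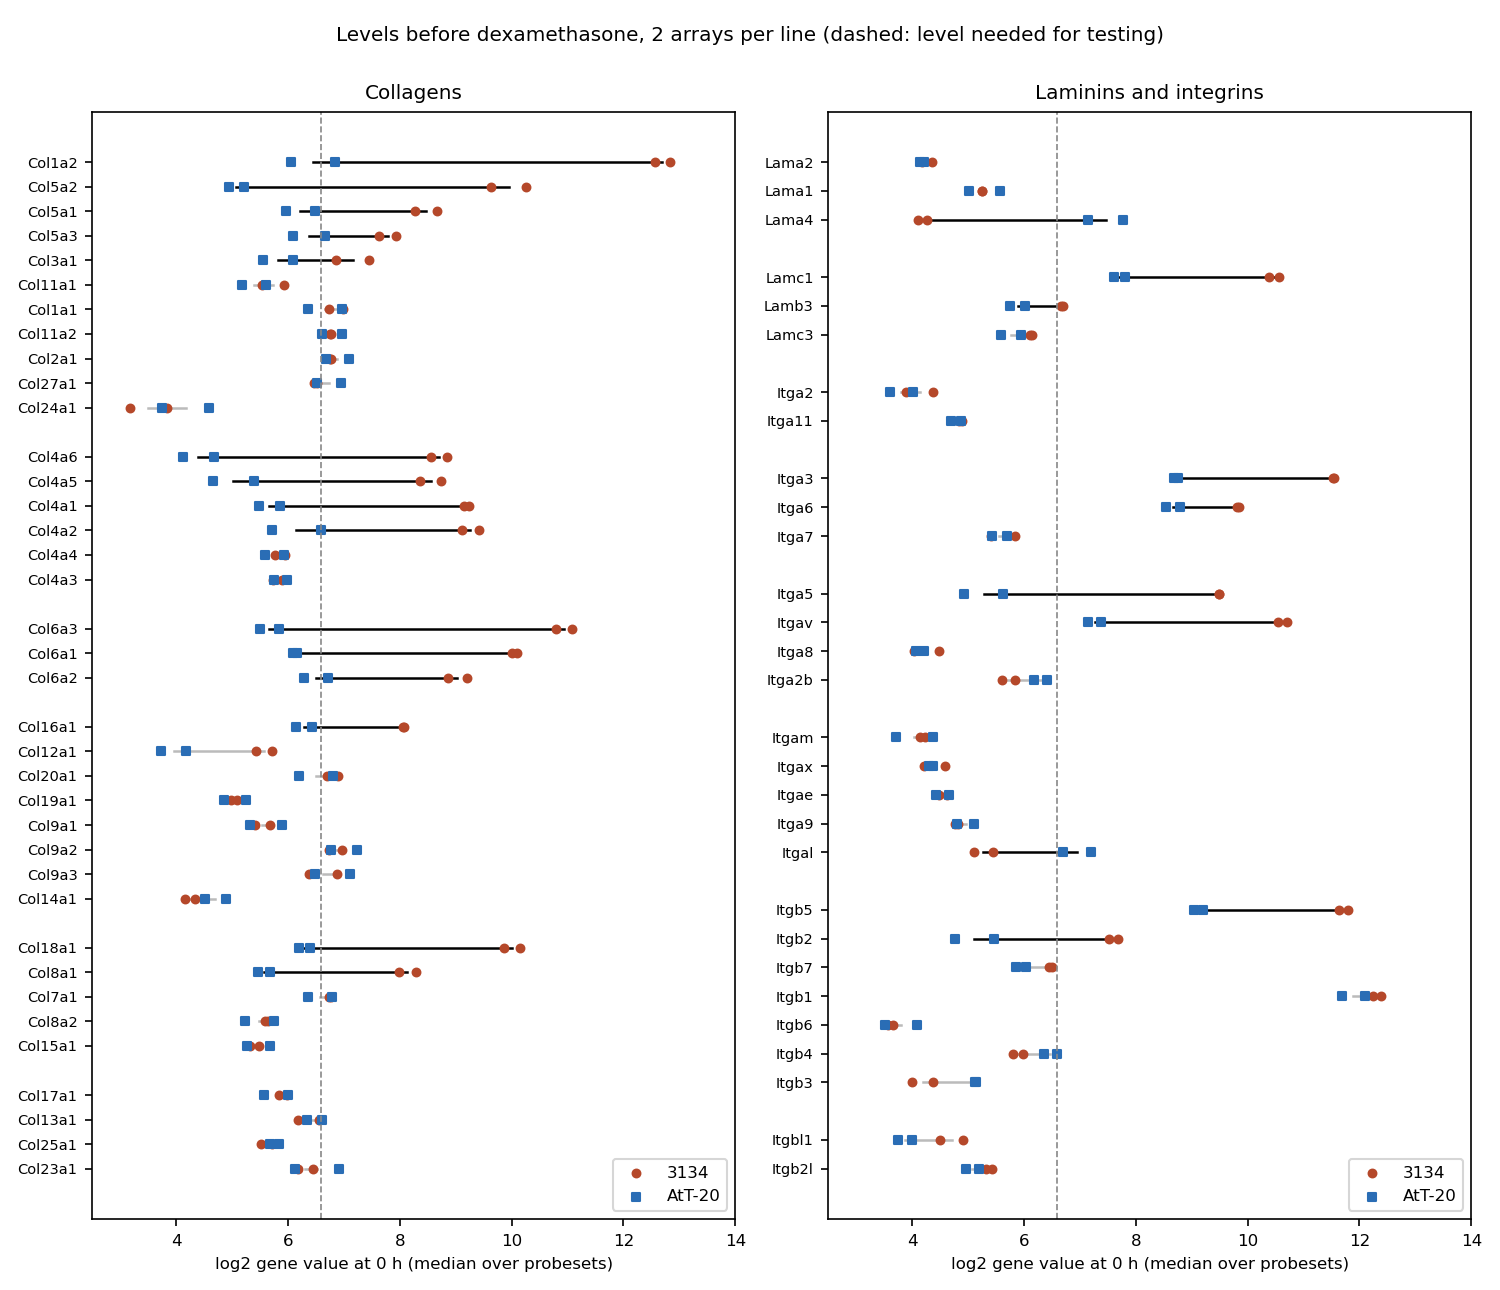
Log2 gene value (x axis, median over probesets, quantile normalized) of each member (y axis, ordered by role) at 0 h, with 3134 arrays as circles and AtT-20 arrays as squares, 2 per line, joined by a line between the group means. Black lines mark the 25 members that passed the test, and the dashed line is the level for testing of 6.59. Collagens I alpha 2, V and VI and most of collagen IV lie far to the right in 3134, Lama4 and Itgal lie to the right in AtT-20, and many members of both panels lie left of the dashed line in both lines.

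Among the fibrillar collagens, which form the cable-like fibrils of connective tissue, 5 of 9 tested members were higher in 3134 and none was lower. Col1a2, the alpha 2 chain of collagen I, read 12.56 and 12.83 on the 3134 arrays and 6.06 and 6.84 on the AtT-20 arrays at 0 h. That is a 75.5-fold difference (log2 6.24 ± 0.340, SE, 2 arrays per line, adjusted p = 1.53e-08, limma), the largest of any member. Over all times Col1a2 ran from 12.07 to 12.88 in 3134 and from 5.90 to 6.84 in AtT-20. Col5a2, a chain of collagen V, which sits inside collagen I fibrils, read 9.63 and 10.27 against 4.94 and 5.21 (log2 4.87 ± 0.433, adjusted p = 1.19e-06). Its partner Col5a1 was higher by 2.25 ± 0.278 (adjusted p = 2.26e-05) and Col5a3 by 1.41 ± 0.257 (adjusted p = 0.000539). Collagen V and the alpha 2 chain of collagen I were thus high in the same line.

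Col1a1, which codes for the chain that pairs with Col1a2 in collagen I, did not follow it. Its arrays read 6.73 and 6.98 in 3134 and 6.36 and 6.96 in AtT-20, so the lines overlapped (log2 0.20 ± 0.290, adjusted p = 0.599). Exon by exon, both 3134 arrays lay above both AtT-20 arrays in 52 of 52 probesets of Col1a2, in 20 of 53 of Col1a1, and the mean difference exceeded 1 in 52 and 10 of them. Col3a1, the single chain of collagen III, lay between these, with 6.87 and 7.46 in 3134 against 5.55 and 6.09 in AtT-20 (log2 1.34 ± 0.342, adjusted p = 0.00554). It showed the same split in 32 of its 54 probesets, with a difference over 1 in 22. Without the second 3134 array or the first AtT-20 array at 0 h the adjusted p of Col3a1 was 0.0594 and 0.0541. The cartilage collagens Col2a1 and Col11a2 stood just above the level for testing in both lines and did not pass.

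**Figure D2:**
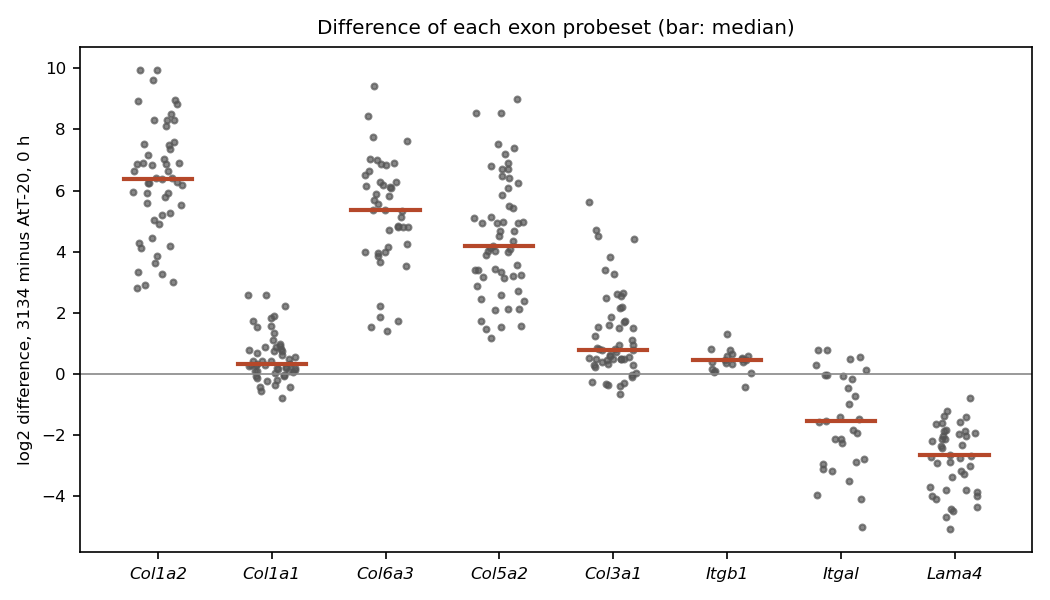
Log2 difference of each exon probeset between the lines at 0 h (y axis, 3134 minus AtT-20, means of 2 arrays) for 8 members (x axis), 1 point per probeset, with the median as a bar and sideways scatter for visibility only. All probesets of Col1a2, Col6a3 and Col5a2 lie above 0, those of Col1a1 crowd near 0 with a few over 1, those of Col3a1 spread widely, and those of Lama4 lie below 0.

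In the collagen IV group, the chains of the basement membrane sheet, all 4 tested members were higher in 3134. Col4a1 read 9.15 and 9.23 in 3134 and 5.48 and 5.86 in AtT-20 (log2 3.52 ± 0.195, adjusted p = 1.72e-08). Col4a2, which joins Col4a1 in the common collagen IV helix, read 9.12 and 9.41 against 5.71 and 6.60 (log2 3.11 ± 0.281, adjusted p = 1.36e-06). Both were clearly separated between the lines, with the second AtT-20 array the nearest. The chains of the rarer collagen IV helices divided. Col4a6 was higher by 4.29 ± 0.231 (8.55 and 8.84 against 4.12 and 4.68, adjusted p = 1.38e-08) and Col4a5 by 3.52 ± 0.263 (8.36 and 8.75 against 4.66 and 5.39, adjusted p = 2.39e-07). Col4a3 and Col4a4, which join Col4a5 in kidney and eye basement membranes, were too dim in both lines to be tested.

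The collagen IV genes lie in head-to-head pairs. In RefSeq (GRCm38.p6) the starts used for the promoter windows of Col4a1 and Col4a2 on chromosome 8 were 21 bases apart on opposite strands, and those of Col4a5 and Col4a6 on chromosome X 1343 bases apart. The 22 bases of chr8:11312805-11312826, which run from one of these starts to the other, lie downstream of both Col4a1 and Col4a2 starts.

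Collagen VI, a beaded filament at the border of cells and matrix, was higher in 3134 in all 3 of its measured chains. Col6a3 read 10.80 and 11.07 against 5.49 and 5.84 (log2 5.27 ± 0.222, adjusted p = 2.05e-09). Col6a1 read 10.01 and 10.10 against 6.09 and 6.17 (log2 3.92 ± 0.187, adjusted p = 4.94e-09), with the arrays of each line close together. Col6a2 was higher by 2.53 ± 0.228 (9.20 and 8.86 against 6.28 and 6.72, adjusted p = 1.33e-06). The helix of collagen VI holds 1 chain of each kind, and none of the 3 stood above the level for testing in AtT-20 except Col6a2 on 1 of the 2 arrays.

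Among the remaining collagens few were bright. Col18a1, whose C-terminal fragment is endostatin, read 9.86 and 10.16 in 3134 and 6.19 and 6.39 in AtT-20 (log2 3.72 ± 0.195, adjusted p = 1.09e-08). Col8a1, a short-chain collagen of vessel walls, was higher by 2.56 ± 0.380 (adjusted p = 0.00011), and Col16a1, a fibril-associated collagen, by 1.78 ± 0.188 (adjusted p = 5.67e-06). Col16a1 was the only one of 4 tested fibril-associated collagens to pass, and neither of the 2 tested transmembrane collagens did. Col12a1, below the level for testing in both lines, read 5.71 and 5.43 against 3.74 and 4.18.

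The laminin chains split by line. Lama4, an alpha chain of vessel and nerve basement membranes, was lower in 3134, with 4.11 and 4.27 there and 7.78 and 7.15 in AtT-20 (log2 -3.28 ± 0.294, adjusted p = 1.3e-06), that is 9.69-fold higher in AtT-20. Both AtT-20 arrays lay above both 3134 arrays in 41 of its 42 probesets. Lama1 and Lama2 were too dim to be tested in either line, so no measured alpha chain was above the level for testing in 3134, where Lama3 and Lama5 were not analysed here. Lamc1, the common gamma chain, read 10.39 and 10.56 against 7.81 and 7.61 (log2 2.77 ± 0.187, adjusted p = 1.02e-07) and was above that level in both lines. Lamb3, a beta chain of epithelial laminin, differed by less, 0.79 ± 0.201 (adjusted p = 0.00523). Lamb1, the common beta chain, is named Lamb1-1 on the platform and so was no member by the rule. It read 10.05 and 10.25 against 4.80 and 4.94 (log2 5.28 ± 0.194, adjusted p = 8.08e-10). Lamb1 and Lamc1 were thus both high in 3134, and of the pair Lamc1 alone was above the level for testing in AtT-20.

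Of the integrin alpha subunits that bind laminin, 2 of 3 were tested and both were higher in 3134, and of those that bind RGD-bearing proteins such as fibronectin, 2 of 4 were tested and both were higher. The others, Itga7, Itga8 and Itga2b, were too dim to be tested, with differences of 0.07, 0.11 and -0.58. Itga5, the fibronectin receptor subunit, read 9.48 and 9.50 against 4.93 and 5.63 (log2 4.21 ± 0.244, adjusted p = 2.55e-08). Itgav, which pairs with several beta subunits to bind vitronectin and latent TGF-beta, read 10.54 and 10.70 against 7.15 and 7.38 (log2 3.35 ± 0.225, adjusted p = 9.55e-08). Both AtT-20 arrays were above the level for testing for Itgav and both were below it for Itga5. The laminin receptor subunits Itga3 and Itga6 were above that level in both lines. Itga3 was higher in 3134 by 2.82 ± 0.146 (11.53 and 11.54 against 8.75 and 8.68, adjusted p = 9.56e-09) and Itga6 by 1.16 ± 0.222 (9.84 and 9.82 against 8.53 and 8.80, adjusted p = 0.000786). The collagen receptor subunits Itga2 and Itga11 were below 5 on every 0 h array, so the line with the bright collagens had no bright alpha subunit of that class among those measured. Itgal, the alpha subunit of the leukocyte integrin LFA-1, was lower in 3134, with 5.44 and 5.11 against 7.21 and 6.70 in AtT-20 (log2 -1.68 ± 0.220, adjusted p = 3.81e-05). Both AtT-20 arrays were above both 3134 arrays in 21 of its 31 probesets.

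Itgb1, the beta subunit shared by most of these receptors, was bright in both lines, with 12.23 and 12.39 in 3134 and 11.68 and 12.09 in AtT-20. Its difference of 0.42 ± 0.206 did not pass (adjusted p = 0.105), and it passed when the first and second arrays of the lines were paired as a block (adjusted p = 0.0108). The first arrays of both lines come from a shared series of serial numbers, while the second arrays come from a different series in each line, so this pairing across lines is a shared run for the first arrays alone. Its level ran from 11.98 to 12.39 over the 8 arrays of 3134 and from 11.53 to 12.09 over the 7 of AtT-20. Itgb5, which pairs with Itgav, read 11.63 and 11.80 against 9.04 and 9.20 (log2 2.59 ± 0.151, adjusted p = 2.68e-08). Itgb2, the beta subunit of the leukocyte integrins and the partner of Itgal, was higher in 3134, with 7.68 and 7.52 against 4.77 and 5.46 (log2 2.48 ± 0.253, adjusted p = 4.12e-06). Itgal and Itgb2 thus differed between the lines in opposite directions, and neither line had both above the level for testing at 0 h. The leukocyte marker Ptprc was at 3.71 in 3134 and 3.89 in AtT-20, and of the 5 leukocyte markers with a value Cd68 alone was above that level, at 7.69 in 3134. The summed leukocyte list ran from 335 to 436 over the 3134 arrays and from 185 to 242 over the AtT-20 arrays, and its part in the Itgb2 and Itgal values was not tested.

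All 25 differences had the same sign between the first arrays, which share a serial run, and between the second arrays, whose serial runs differ between the lines, and these 2 differences of 1 gene were at most 0.84 apart. The 25 were called from these same arrays, so their shared sign is no separate support. In 18 of the 25 the AtT-20 mean was below the level for testing, in 2, Itgal and Lama4, the 3134 mean was, and in 5 both were above it. The same split was not counted over all genes that passed. A fold against a mean below that level is a ratio to a dim signal. Left on the scale as deposited, 20 of the members passed, 19 higher and 1 lower in 3134. On that scale 1982 of all 10113 tested genes passed, 1042 higher and 940 lower.

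Upstream sequences are given for Col1a2, Col6a1 and Itga5, genes with large differences whose upstream window holds no annotated gene, so that the motifs counted next can be seen in place. Each is the 250 bases before the RefSeq start in GRCm38.p6, read 5′ to 3′ on the strand of the gene, with CCAAT boxes (CCAAT), GC boxes (GGGCGG) and AP-1 sites (TGANTCA) of either strand in capitals. Col1a2 lies at chr6:4505368-4505617 (plus strand), Col6a1 at chr10:76726045-76726294 (minus strand) and Itga5 at chr15:103366792-103367041 (minus strand).
Col1a2: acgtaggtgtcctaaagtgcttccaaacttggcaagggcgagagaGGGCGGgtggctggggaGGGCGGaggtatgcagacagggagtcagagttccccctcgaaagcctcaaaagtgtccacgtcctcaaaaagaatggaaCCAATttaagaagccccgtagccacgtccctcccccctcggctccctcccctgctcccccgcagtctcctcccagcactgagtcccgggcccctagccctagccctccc
Col6a1: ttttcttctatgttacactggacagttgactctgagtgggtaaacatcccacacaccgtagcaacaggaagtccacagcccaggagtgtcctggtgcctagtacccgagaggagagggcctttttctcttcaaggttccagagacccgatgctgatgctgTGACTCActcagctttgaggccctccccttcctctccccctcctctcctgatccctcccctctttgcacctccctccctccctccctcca
Itga5: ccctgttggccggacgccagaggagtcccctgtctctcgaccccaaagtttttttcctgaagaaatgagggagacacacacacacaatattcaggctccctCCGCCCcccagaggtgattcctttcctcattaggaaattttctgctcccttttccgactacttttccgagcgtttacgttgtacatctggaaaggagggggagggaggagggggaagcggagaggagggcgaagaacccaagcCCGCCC

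Col1a2 holds a CCAAT box whose first base is 109 bases before the start, and 2 GC boxes. Itga5 holds 2 GC boxes and Col6a1 an AP-1 site 90 bases before its start and no GC box. Across windows of 300 bases, 250 before to 50 after the start, 48 of the 66 members had a sequence in the RefSeq table. A GC box stood in 28 of the 48 (58.3%) and in 35.9% of the 27025 promoters in the table, a CCAAT box in 13 (27.1%) and 37.9%, and a TATA box (TATAAA) in 4 (8.33%) and 14.2%. An AP-1 site stood in 3 (6.25%) and 7.93%, and the half-site of the glucocorticoid receptor (AGAACA) in 7 (14.6%) and 19% of all promoters. The full element (AGAACA and TGTTCT with 3 bases between them) was in none of the 48 and in 1 promoter of the table, and the NF-kB site (GGGA, any base, TTTCC) was in none of the 48 and in 0.385% of the table. Both strands were searched, matches of different motifs were counted apart even where they overlapped, and a match is a description of letters only. Col4a1 and Col4a2 each hold a CCAAT box and a GC box.

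The rest of the machinery was read from lists of related genes. Of 19 tested genes for enzymes and helpers that make collagen, 14 were higher and 1 was lower in 3134, where 24.3% of all tested genes were higher and 30.2% lower. Pcolce (log2 5.11), an enhancer of procollagen cleavage, P4ha2 (5.13), a prolyl hydroxylase subunit, Loxl1 (4.41), a crosslinking enzyme, and Pcolce2 (4.47) had the smallest p-values. Of 16 tested genes of other matrix proteins and their receptors, 13 were higher and 2 lower, and the smallest p-values were those of Spp1 (8.50), Fn1 (8.44), Sparc (5.95) and Dag1 (4.11), which encode osteopontin, fibronectin, a collagen-binding secreted protein and dystroglycan. Of 26 tested genes of the integrin adhesion complex, 23 were higher and 1 lower, and the smallest p-values were those of Cav1 (7.10), Ptk2b (3.43), Tln1 (1.88) and Vcl (1.99), of which Tln1 and Vcl encode talin and vinculin, which link integrins to actin. Adjusted p-values of these 12 genes were 5.9e-07 or less in limma's fit over all tested genes. The median difference over the genes with a value was 1.30, 1.25 and 0.86 in the 3 lists, and fibronectin and its receptor subunit Itga5 stood high in the same line.

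The second comparison asked which members changed over 2, 4 and 8 h of dexamethasone in 3134. The change was smaller than 0.5 in 64 of 66 members at 2 h, 62 at 4 h and 61 at 8 h. This was not counted over all genes, so it does not set the members apart. Col4a1 rose at 4 h and Itgb2 fell at 8 h, and both changes passed the test. Col4a2 had positive changes at the same times, which did not pass in this fit and passed with the serial run as a block or with the mean over probesets as the gene value at 4 and 8 h. No member passed at 2 h (1.22% of all tested genes did), 1 of 36 at 4 h (1.91% of all) and 1 of 36 at 8 h (2.19% of all). At 2 h, 2 members and 494 of all 9927 tested genes had an unadjusted p under 0.05 in limma. With the serial run as a block, 2 members passed at 2 h (2.98% of all tested genes), 3 at 4 h (5.17%) and 4 at 8 h (7.88%), so the members were called at 5.56%, 8.33% and 11.1%. The median change over the members was 0.018, 0.083 and 0.11 at the 3 times, against -0.017, 0.0036 and 0.014 over all genes with a value.

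**Figure D3:**
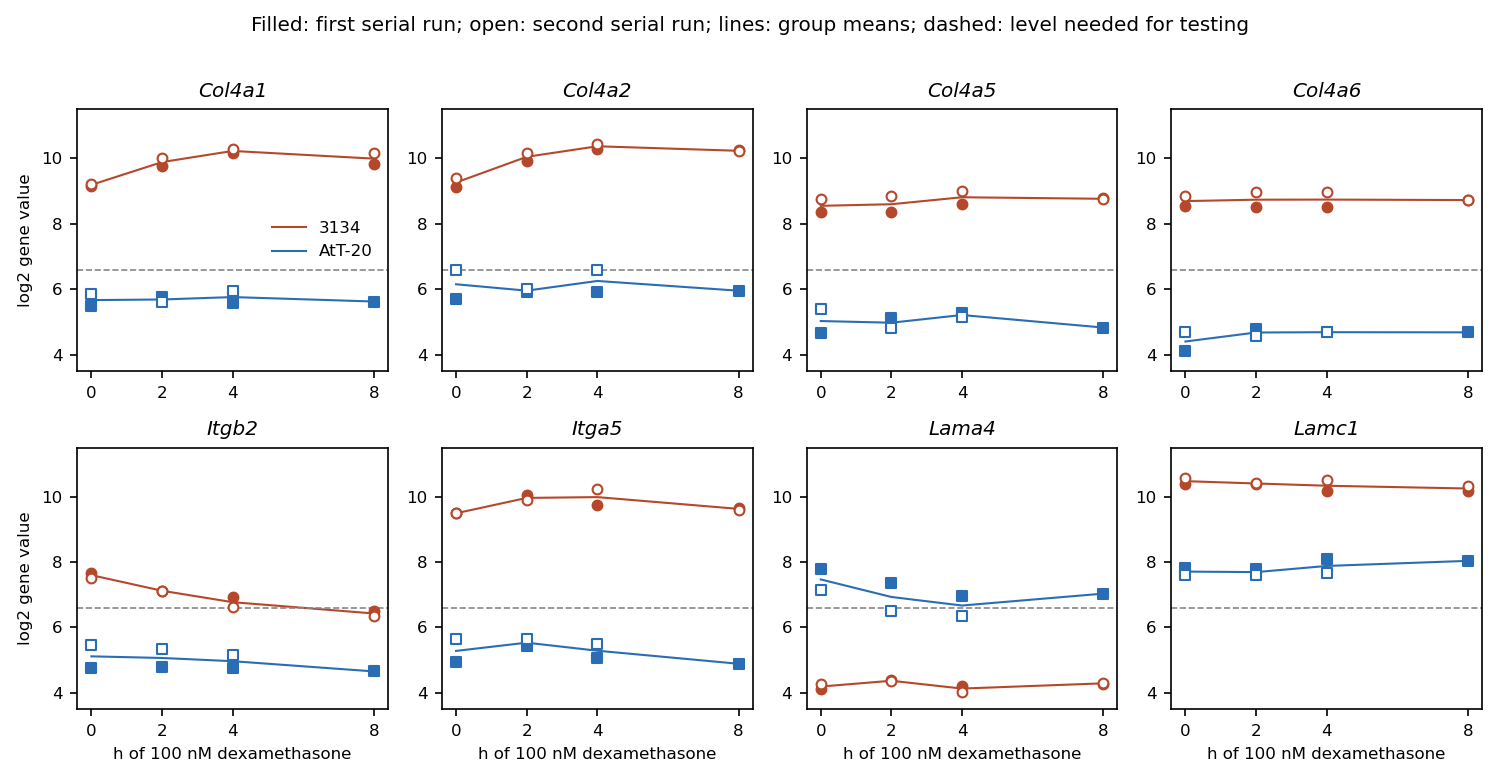
Log2 gene value (y axis) of 8 members against h of 100 nM dexamethasone (x axis), with 3134 as circles and AtT-20 as squares, filled for the first and open for the second serial run, group means joined by lines and the level for testing of 6.59 dashed. Col4a1 and Col4a2 climb in 3134 by 4 h while Col4a5 and Col4a6 change less, Itgb2 descends in 3134 to 8 h, and Lama4 declines from its 0 h values in AtT-20 within each run.

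In 3134, Col4a1 started at 9.15 and 9.23, reached 9.77 and 10.00 after 2 h and 10.17 and 10.29 after 4 h, and read 9.83 and 10.15 after 8 h. Every treated array lay above both 0 h arrays. The change was 0.70 at 2 h (adjusted p = 0.192, with the block 0.0229), 1.04 ± 0.195 at 4 h (2.05-fold, adjusted p = 0.0158) and 0.80 at 8 h (adjusted p = 0.0608, with the block 0.0062). The mean of the 3 times was 0.85 ± 0.159 above 0 h (adjusted p = 0.0137), the 1 of 36 members that passed in that comparison, where 2.43% of all tested genes did, and 6.55% with the block. Leaving out any 1 of the 4 arrays compared at 4 h gave adjusted p-values from 0.0869 to 0.149, and leaving out the first or the second 0 h array gave 0.217 and 0.155 for the mean response. Exon by exon the rise was even: the mean response was positive in 67 of 67 probesets, and in 54 of them all 6 treated arrays lay above both 0 h arrays. Here and for the genes below, the gene value comes from these same probesets and arrays. Agreement among probesets is therefore no separate support for a change.

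Col4a2 started at 9.12 and 9.41, reached 9.92 and 10.17 after 2 h and 10.29 and 10.46 after 4 h, and read 10.25 and 10.22 after 8 h. Here too every treated array lay above both 0 h arrays, and the spread at 0 h was wider than for Col4a1. Its change was 0.78 ± 0.281 at 2 h (adjusted p = 0.537, with the block 0.0297), 1.11 ± 0.281 at 4 h (0.0866, with the block 0.00222) and 0.97 ± 0.281 at 8 h (0.132, with the block 0.00517). The mean response of 0.95 ± 0.229 had an adjusted p of 0.0555, and 0.0012 with the block. With the mean over probesets as the gene value it passed without a block (0.82, adjusted p = 0.00593), as did the 4 h change (0.99, adjusted p = 0.00811) and the 8 h change (0.86, adjusted p = 0.0183). The mean response also passed with a higher level for testing (adjusted p = 0.0451) and with the spread modelled on the intensity (adjusted p = 0.0466). All 54 probesets had a positive mean response, and in 50 of them the 6 treated arrays lay above both 0 h arrays. Between 2 and 8 h neither gene changed past the test (0.11 for Col4a1, adjusted p = 0.988, and 0.18 for Col4a2, adjusted p = 0.98). Col4a5 and Col4a6 had mean responses of 0.18 and 0.04, smaller than those of the pair on chromosome 8, and passed at no time with or without the block. For Col4a5, 48 of 60 probesets had a positive mean response and 12 a negative one.

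Itgb2 started at 7.68 and 7.52 and read 7.11 and 7.12 after 2 h, 6.93 and 6.61 after 4 h, and 6.51 and 6.34 after 8 h. The arrays of each later time lay below those of the time before, with no overlap. The change was -0.48 at 2 h (adjusted p = 1, with the block 0.102), -0.83 at 4 h (adjusted p = 0.193, with the block 0.00261) and -1.17 ± 0.253 at 8 h (2.25-fold lower, adjusted p = 0.035, with the block 0.000181). The mean response of -0.83 ± 0.207 did not pass (adjusted p = 0.0681, with the block 0.000464), and with the mean over probesets as the gene value it was -0.84 and passed without a block (adjusted p = 0.0359). The change of -0.70 from 2 to 8 h passed with the block (adjusted p = 0.485, with the block 0.0208), a comparison in which 0.0907% of all tested genes passed and 1.99% with the block. Without any 1 of the 4 arrays the 8 h change had adjusted p-values from 0.126 to 0.235, with no filter on dim genes 0.0707, and with the spread modelled on the intensity 0.0523. The mean response was negative in 15 of 16 probesets, and in 8 of them every treated array lay below both 0 h arrays. The leukocyte marker Ptprc stayed between 3.52 and 3.98 on the 8 arrays of 3134, below the level for testing, where a change could hardly be seen. Cd68, the 1 leukocyte marker tested, did not pass at 2, 4 or 8 h in 3134, with or without the block. The part of leukocyte markers in the fall of Itgb2 was not tested.

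Other members changed less. Col27a1, a fibrillar collagen of cartilage, read 6.47 and 6.52 at 0 h and 6.83 and 7.34 at 8 h, a change of 0.59 ± 0.209 that passed only with the block (adjusted p = 0.255, with the block 0.0382). Itga5 read 10.04 and 9.88 after 2 h, 9.74 and 10.23 after 4 h, then 9.65 and 9.60 after 8 h, all above its 0 h arrays, and its changes of 0.47, 0.49 and 0.13 did not pass with or without the block. Itga6 was 0.58 below 0 h at 4 h (8.97 and 9.54 against 9.84 and 9.82, adjusted p = 0.406). Col1a2, Col6a1, Lamc1, Itgav and Itgb1 did not pass at any time, and Col1a2 stayed between 12.07 and 12.88. Itgb3, which pairs with Itgav, was below the level for testing throughout and is named after its values were seen: it started at 3.99 and 4.38 and read 4.22 and 4.28 after 2 h, 4.15 and 5.22 after 4 h, and 4.97 and 5.26 after 8 h.

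The deposited scale shifts all genes: its median change over the tested genes was -0.0716 at 2 h, -0.313 at 4 h and -0.373 at 8 h in 3134. On that scale Col4a1 changed by 0.69 and Col4a2 by 0.77 at 4 h, which is 1.01 and 1.08 relative to the median, and Itgb2 by -1.45 at 8 h, which is -1.08 relative to it. Directions were the same on every scale tried, and the Col4a1 and Itgb2 calls were lost with the arrays as deposited (adjusted p = 1 and 0.992) or centred on their medians (adjusted p = 0.0662 and 0.113).

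In AtT-20 no member passed at 2, 4 or 8 h or in the mean of 2 and 4 h with limma, where 0.0907%, 0.171%, 0.121% and 0.181% of all tested genes did. The number of the 36 tested members with an unadjusted p under 0.05 was 0, 1, 0 and 1. Over all 9927 tested genes that number was 238, 337, 304 and 340. The change was smaller than 0.5 in 65, 64 and 65 of 66 members at the 3 times, which was not counted over all genes. The 8 h changes set 1 array of the first run against the 0 h mean of both runs. They are thus not balanced over the runs, and their count may reflect the run as well as time. Lama4 was the only measured laminin alpha chain above the level for testing in this line at 0 h. It started at 7.78 and 7.15, read 7.37 and 6.49 after 2 h, 6.97 and 6.36 after 4 h and 7.03 on the single 8 h array. Within each serial run every treated array lay below the 0 h array, while across runs the groups overlapped. Its change was -0.54 at 2 h, -0.80 ± 0.294 at 4 h (adjusted p = 1, with the block 0.0185) and -0.43 at 8 h, and the mean of 2 and 4 h was -0.67 ± 0.255 (adjusted p = 1, with the block 0.02). The -0.43 sets a first-run array against the 0 h mean of both runs. In the first run alone Lama4 read 7.78 at 0 h, 6.97 at 4 h and 7.03 at 8 h. With the block 1 member, Lama4, passed at 4 h and in the mean, where 0.866% and 0.766% of all tested genes did. In 39 of its 42 probesets the mean response was negative. Col4a1 and Col4a2 stayed at 5.48 to 5.94 and 5.71 to 6.60 in AtT-20, below or at the level for testing.

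**Figure D4:**
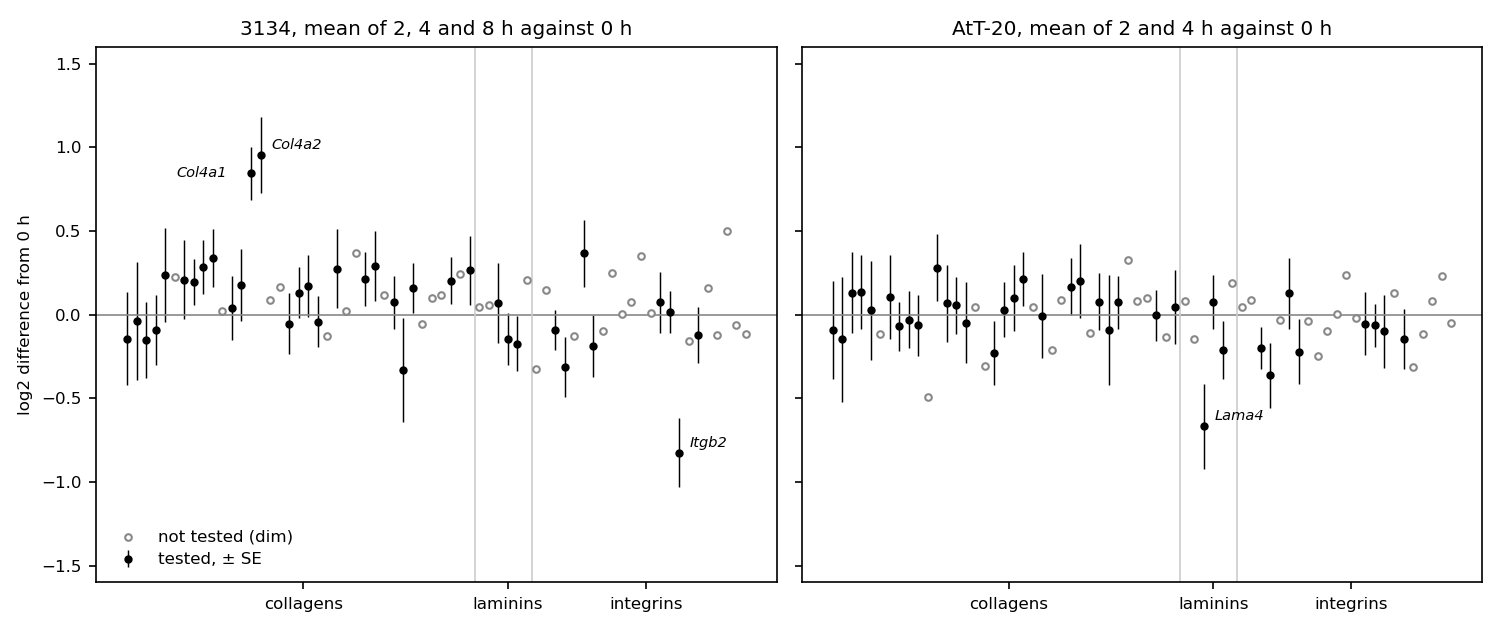
Mean log2 difference from 0 h (y axis) of each member (x axis, in the order of the plot of basal levels) in 3134 (left, mean of 2, 4 and 8 h) and AtT-20 (right, mean of 2 and 4 h), with SE bars for tested members and open circles for those too dim to test. Col4a1 and Col4a2 stand near 0.85 and 0.95 and Itgb2 near -0.83 in 3134, Lama4 near -0.67 in AtT-20, and the other members lie within about 0.5 of 0.

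Whether the responses differed between the lines was tested directly over 2 and 4 h, the times with both serial runs in both lines. No member passed with limma (0.645% of all tested genes did), and 3 passed with the serial run as a block, where 2.79% of all tested genes did. Without the block, 2 members and 549 of all 9927 tested genes had an unadjusted p under 0.05. The response of 3134 minus that of AtT-20 was 0.81 ± 0.239 for Col4a1 (adjusted p = 0.283, with the block 0.0343), 0.99 ± 0.344 for Col4a2 (0.50, with the block 0.0279) and 0.72 ± 0.360 for Lama4 (1, with the block 0.0361). The block on the scale as deposited called 0 members, and the block with each array centred on its median called 1, Lama4. For Itgb2 it was -0.55 ± 0.310 and passed in neither fit (adjusted p = 1, with the block 0.131). In each of these genes the line with little response was also the line in which the gene was dim.

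Of the related genes, 1 of 19 tested collagen-making genes rose, 1 of 16 other matrix genes fell and 2 of 26 adhesion complex genes rose in the mean response of 3134, where 2.43% of all tested genes passed. With the block, where 6.55% passed, 1 collagen-making gene rose, 1 other matrix gene rose and 1 fell, and 4 adhesion complex genes rose. The genes added by the block were Vcan, the proteoglycan versican (0.54, adjusted p = 0.0894, with the block 0.0107), Tns2, a second tensin (0.48, adjusted p = 0.142, with the block 0.0293), and Actn4, an alpha-actinin (0.39, adjusted p = 0.181, with the block 0.0489). Tns2 and Actn4 are named after their values were seen. Vcan also rose at 8 h without the block (7.59 and 7.56 at 0 h, 8.48 and 8.46 at 8 h, log2 0.89, adjusted p = 0.0209). Loxl3, a lysyl oxidase that crosslinks collagen, went from 8.41 and 8.92 at 0 h to 10.26 and 10.27 at 4 h (mean response 1.43 ± 0.192, adjusted p = 0.0012). Tns1, tensin, which binds the tails of integrin beta subunits, went from 7.97 and 7.64 to 11.25 and 11.33 at 8 h (mean response 2.74 ± 0.198, adjusted p = 9.72e-06), and Lims2, an adaptor of the integrin-linked kinase, from 6.25 and 6.29 to 9.15 and 8.88 (2.27 ± 0.162, adjusted p = 9.27e-06). The treated arrays of these genes lay above all their 0 h arrays. The same 3 genes rose more in 3134 than in AtT-20, by 1.47 (Loxl3, adjusted p = 0.0483), 2.05 (Tns1, adjusted p = 0.00757) and 1.59 (Lims2, adjusted p = 0.0115). Thbs1, thrombospondin, an integrin ligand, fell in both lines, by a mean of 0.82 in 3134 (12.96 and 13.03 at 0 h, 11.99 and 12.13 at 4 h, adjusted p = 0.0133) and of 1.47 in AtT-20 (8.59 and 8.49 at 0 h, 6.81 and 6.68 at 4 h, adjusted p = 0.0022). In AtT-20 Thbs1 was the 1 gene of the 3 lists that passed in the mean of 2 and 4 h, with or without the block.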

How the data were processed

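RNA of 15 mouse cell line samples was read on 1-colour Affymetrix exon arrays. Per the submitters' processing notes, the authors used RMA and Affymetrix Expression Console, with no version named, and deposited log2 values for each probeset and array. The deposited columns had different medians, so the arrays were quantile normalized. A gene's value is the median over its probesets that the platform table assigns to 1 gene (at least 3). The level for testing was the 40th percentile of all values, log2 6.59, in the highest group mean (9927 of 15041 genes).

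The means of the 8 groups were fitted over all 15 arrays in R 4.3.3 by limma 3.58.1 (lmFit and eBayes, moderated, 2-sided, 7 residual degrees of freedom). Benjamini-Hochberg adjustment ran over all tested genes at a threshold of 0.05, and every adjusted p is from limma. Precision is limited by the number of arrays, with a median SE of log2 0.215 between groups of 2 arrays. The AtT-20 group at 8 h, with 1 array, was taken to vary as much as the others. The fits were tested on simulated data. Promoters were searched with Python 3.11.15.

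Serial numbers in the sample titles fall into a first run, shared by the lines, and a second, which has different serials in each line. Deviations from group means, across genes, correlated at 0.492 to 0.59 over 9 pairs within a line and at 0.277 to 0.391 over 12 pairs across lines. The runs were therefore taken as paired, on the data alone. The block had its own effect in each line over time and 1 common effect between the lines at 0 h. Its value stands beside a member's result where it alters the call. The alternatives were the scale, the filter on dim genes, the probeset summary, an intensity trend, the block and leaving out arrays.

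Named were all members that passed in a comparison over time, up to 4 each way per role between the lines, 13 genes chosen for their role (Lama5 had no value), and the 4 genes with the smallest p per related list among those that passed. The members, the lists and this rule were chosen with earlier results of these data known. Levels of different genes were not tested against each other. Words such as bright and dim set each gene against the level for testing and do not measure amounts across genes.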

Additional observations from a re-analysis of the deposited data

Results flagged for a closer look

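Responses to dexamethasone over 2 and 4 h differed between the lines in 3 members when the serial run was a block in limma's fit. The difference, 3134 minus AtT-20, was 0.81 for Col4a1 (adjusted p = 0.0343), 0.99 for Col4a2 (adjusted p = 0.0279) and 0.72 for Lama4 (adjusted p = 0.0361). Without the block the adjusted p-values were 0.283, 0.50 and 1, and 0 members passed. The block on the scale as deposited gave 0.63 for Col4a1, 0.81 for Col4a2 and 0.75 for Lama4 (adjusted p = 0.935, 0.419 and 0.575) and called 0 members. With each array centred on its median the block called Lama4 (0.85, adjusted p = 0.0273) and neither Col4a1 (0.73, adjusted p = 0.108) nor Col4a2 (0.91, adjusted p = 0.0556).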

How the results depend on the processing

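Between the lines at 0 h, the 25 members that passed kept their direction under every alternative that gave them a value (366 values). Of these, 352 were on the same side of the threshold or within 1 SD and 7 missed the threshold. The other 7 moved by more than 1 SD, all in the first run alone, which has no test. With the 60th percentile as the level for testing, 17 members were higher and 0 lower, where 1909 of all 7516 tested genes were higher and 2286 lower. Itgal and Lama4 were too dim to be tested there. Leaving out 1 array left 24 to 25 members. Over all genes 2972 were higher and 1933 lower with a replicate block on the scale as deposited, against 2412 and 3002 in the fit reported. In 3134, leaving out 1 array left 0 members at 2, 4 and 8 h and 0 to 1 in the mean response; elsewhere it left 0. With the replicate block (pairing by serial run), 2, 3 and 4 members passed at 2, 4 and 8 h, 3 in the mean, 1 from 2 to 8 h, 1 in AtT-20 at 4 h and in its mean, and 3 in the difference of responses. The block and median centring, added after seeing the data, gave 2, 3, 4 and 3 in 3134 (2 h, 4 h, 8 h, mean) and 1 in the difference of responses, and 0 from 2 to 8 h and in AtT-20. The block on the deposited scale, also added, gave 2 at 4 h (0 higher, 2 lower). At 8 h it gave 2 (0 higher, 2 lower), and in the mean 2. It gave 0 at 2 h, from 2 to 8 h, in AtT-20 and in the difference of responses. Over all genes in that setting, falls made up 339 of 469 calls at 4 h, where the median change was -0.313. By 8 h falls made up 1038 of 1164 calls, where the median change was -0.373. Most calls in that setting were thus falls, and those of the members do not set them apart. The arrays as deposited or centred gave 0 at 4 h, 8 h and in the mean. The mean over probesets gave 2, 3 and 3 there. No filter gave 0 at 8 h, the 60th percentile as the level for testing gave 2 in the mean, and an intensity trend gave 0 at 8 h and 2 in the mean. The cause was not tested. No result reversed. Members near the level for testing are limited by their signal over background.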
